A study of Mus musculus with 6 samples.

Results

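The RAB GTPase family was described here in RAW264.7 cells, a mouse macrophage-like cell line, with and without interleukin-4. Members were the genes of the deposited expression table whose symbol is Rab followed by a number and at most a letter and a digit, 59 of 25124 genes. Names such as Rab11fip1 or Rab3gap1, which belong to partners of RAB proteins, were thereby left out of the family. The cells were a control line that had received a plasmid for Cas9 without a guide RNA, as the counterpart of an E4BP4 knockout, and all groups share that treatment. Culture was in high-glucose medium (25 mM) containing 10% serum, below passage 15. The M0 group had no IL-4 and the M2 group had IL-4 at 10 ng/ml, with 3 libraries each. How long the cells were treated is not stated in the sources used.

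RAB proteins are small GTPases that mark the surface of membrane compartments. In the GTP-bound state they sit on a membrane and recruit effectors that move, tether or fuse vesicles, and in the GDP-bound state they are held in the cytosol by a dissociation inhibitor. Exchange factors switch them on and GTPase-activating proteins switch them off. In macrophages they order the steps of phagocytosis, macropinocytosis, receptor recycling, antigen handling and secretion. Members were sorted by textbook site into early endosome (7), late endosome and lysosome (9), recycling endosome (10), exocytic and secretory vesicle (12), ER and Golgi (14) and other or unassigned sites (7). Many RAB proteins act at more than a single site, so each assignment is to a main site.

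The libraries held 15615639 to 19511192 reads that could be recovered from the deposited values. All 8 macrophage markers examined (Csf1r, Cd68, Itgam, Lyz2, Adgre1, Spi1, Ptprc and Fcgr1) stood at or above 1 TPM in each library, and their summed level was 2367 to 2584 TPM in M0 and 2163 to 2273 TPM in M2. TPM is a level of transcripts scaled for transcript length and library depth. None of 20 markers of T cells, B cells, epithelium, fibroblasts and endothelium reached 1 TPM in any library. Libraries differed from others of their group in a trend with gene model length, strongest in M2 replicate 3, where Spearman's rho of the deviation with length was -0.61 across 11202 genes, which are not independent replicates. The other libraries lay between -0.42 and 0.56. A remark on re-analysis stands in the title of each M0 sample and of no M2 sample, so IL-4 and whatever that remark refers to cannot be told apart. The labels do not call the replicates separate cultures. The p-values therefore describe the spread among these libraries, and that spread may be technical.

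RAB transcripts fell more often than they rose with IL-4, and most of the changes were small. Of 41 members tested, 17 fell and 3 rose at an adjusted p under 0.05 (limma), while 21 did not pass. Over all 11202 tested genes 23.7% fell and 20.1% rose, against 41.5% and 7.32% of the tested RAB genes. The median log2 fold change of the 41 was -0.12 and that of all tested genes was -0.03, on the log2(TPM + 1) scale, where M2 minus M0 is given throughout. The largest fall was that of Rab7b and the largest rise that of Rab8b, and these belong to pairs whose other members, Rab7 and Rab8a, are more abundant in M0. Rab7b alone was called with a change of at least 2-fold on this scale, as were 275 of all tested genes. M0 and M2 libraries did not overlap for 24 of the 41 members (58.5%), where 55.9% of all tested genes did not overlap, so by that measure the family was near the background.

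The number of falls depended on the libraries, and in most fits with a library left out the share of RAB genes that fell lay closer to that of all genes. Without M0 replicate 1, 2 or 3 the falls numbered 10, 8 and 8, which is 24.4%, 19.5% and 19.5% of the tested members, where 19.2%, 17% and 17.1% of all genes fell. Without M2 replicate 1 or 2 they numbered 10 and 11 (24.4% and 26.8%), where 21.9% and 22.1% of all genes fell. Without M2 replicate 3 they numbered 18 (43.9%), where 25.2% of all genes fell. With median-ratio scaling of the libraries 12 RAB genes fell and 3 rose, where 22.8% of all genes fell and 23.5% rose. With limma-voom on recovered reads 16 fell and 3 rose, where 25.8% of all genes fell and 21.9% rose. In the authors' deposited table, at an adjusted p under 0.05, the falls numbered 11 of 41 and the rises 3. Of the genes tested here and listed there, 21% fell and 22.8% rose in the authors' deposited table. All 14 of the authors' calls were also calls of the limma fit in the same direction. In no alternative did a called member change sign. Calls that held in all 13 alternatives numbered 10, namely the falls of Rab7b, Rab43, Rab3d, Rab20, Rab13, Rab8a and Rab9 and the rises of Rab8b, Rab19 and Rab2a.

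**Figure D1:**
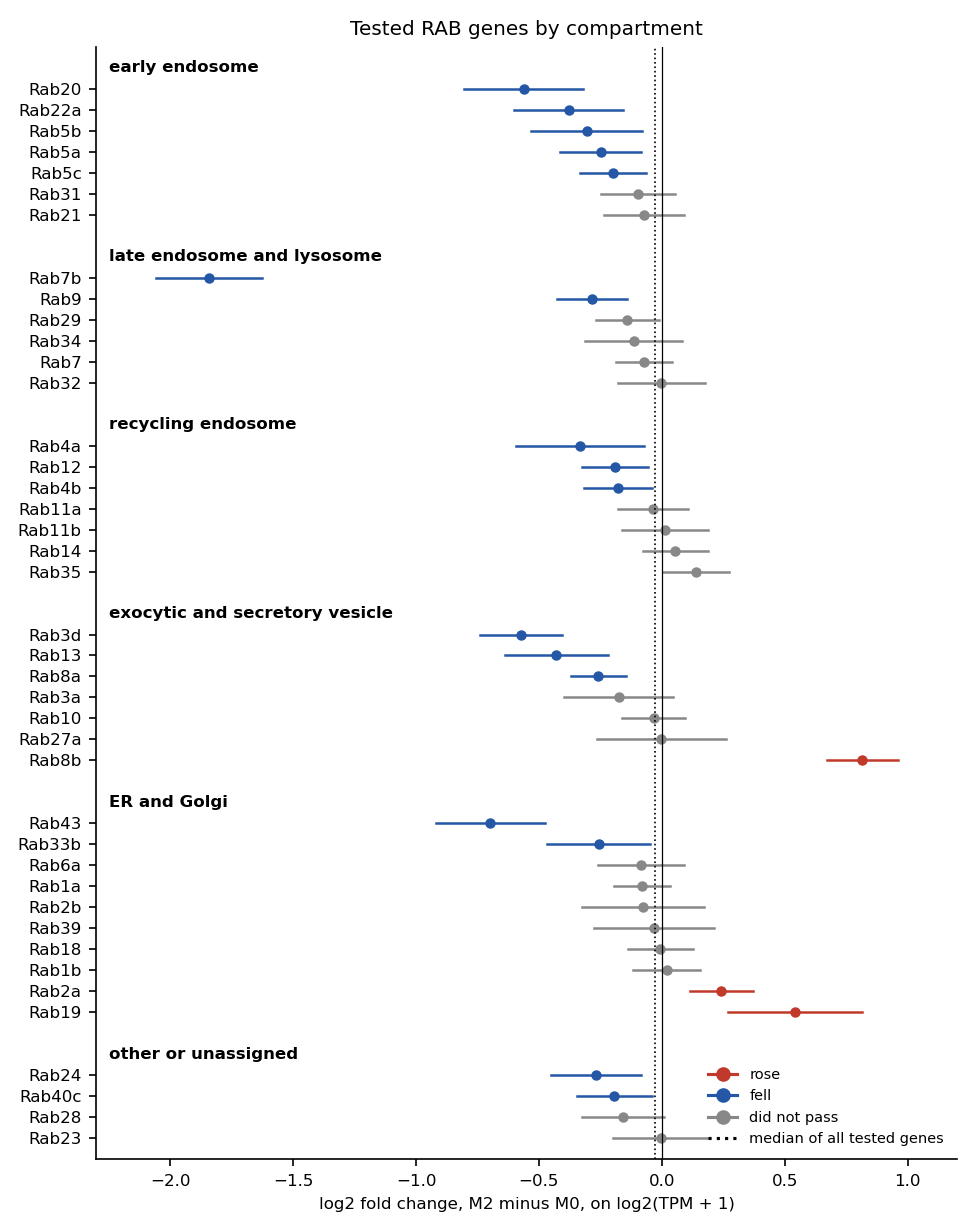
Log2 fold change (M2 minus M0, on log2(TPM + 1)) of the 41 tested RAB genes, grouped by main site, with 95% confidence intervals from limma. Red marks the 3 genes that rose, blue the 17 that fell and grey the 21 that did not pass. The dotted line is the median of all tested genes, -0.03.

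RAB transcripts were abundant in these cells, but unequally so. Summed over 59 members the level was 1828, 1865 and 1848 TPM in M0 replicates 1, 2 and 3 and 1751, 1817 and 1719 TPM in M2 replicates 1, 2 and 3. Every M2 sum was below every M0 sum, and the ratio of the means was 0.954. These sums are of TPM as deposited, without median-ratio scaling. The scaling factor was 0.947 for M2 replicate 3 and 0.996 to 1.02 for the other libraries, so the size of the gap depends on the scaling. Rab5c stood first, with means of 213 TPM (M0) and 185 TPM (M2), followed by Rab7, Rab1a and Rab1b, and these 4 genes kept their order in both groups. The 8 most abundant members held 52.9% of the summed level. Rab8b ranked 10 in M0 and 5 in M2, and Rab8a moved from rank 7 to rank 10. In bulk RNA, fewer cells with a transcript and less of it per cell cannot be told apart.

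**Figure D2:**
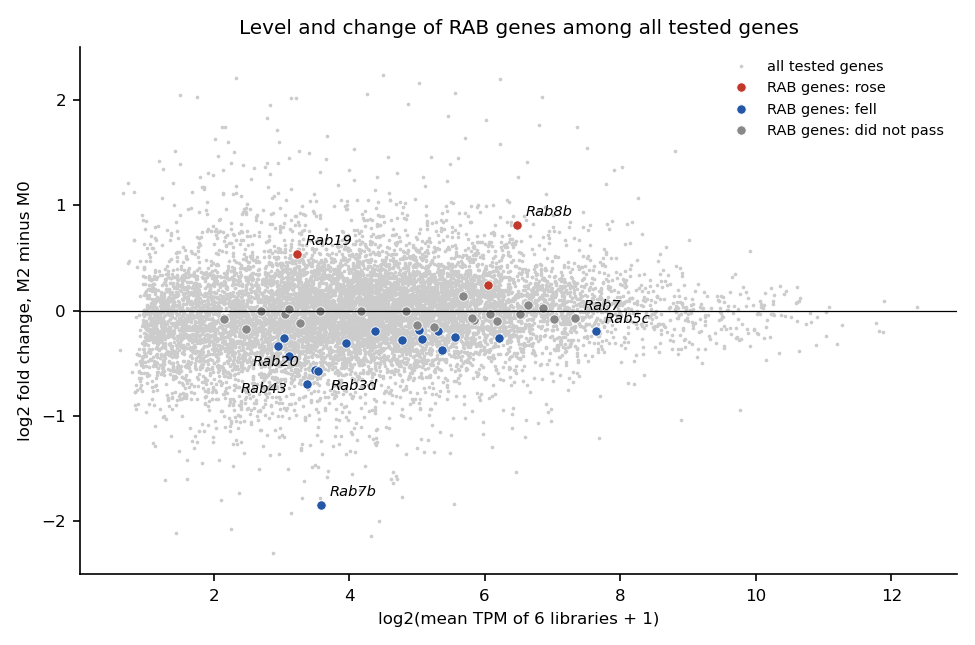
Log2 fold change (M2 minus M0) against log2(mean TPM of 6 libraries + 1) for all 11202 tested genes in grey and RAB genes in colour. The RAB genes that changed most, other than Rab8b, lie at lower levels, and the abundant Rab5c and Rab7 lie close to 0. The plot leaves out 4 genes that lie beyond the axis.

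Early endosome members all leaned downward. These RAB proteins receive cargo just after uptake, and RAB5 proteins drive the fusion of incoming vesicles. Of 7 tested members 5 fell (71.4%), 0 rose and 2 did not pass, and the median log2 fold change was -0.25. Over all tested genes 23.7% fell and 20.1% rose. Their summed level was 466, 474 and 464 TPM in the M0 libraries and 411, 425 and 385 TPM in the M2 libraries, with no overlap and a ratio of means of 0.870.

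Rab20, which encodes a RAB of early endosomes and phagosomes known for its role in phagosome maturation, had the largest fall of this group. It stood at 11.9, 12.3 and 13.3 TPM in M0 replicates 1, 2 and 3 and at 6.87, 8.41 and 9.26 TPM in M2 replicates 1, 2 and 3. All M2 libraries lay below all M0 libraries, and the log2 fold change was -0.56 (SE 0.11, adjusted p = 0.00303 by limma). Part of its transcript (25.6% of exonic bases) is overlapped by another gene model, E230013L22Rik, and whether the counting used strand is not stated. The RefSeq window of 250 bases before its start site, on GRCm38.p6 at chr8:11478641-11478890 on the minus strand, holds an E-box (CACGTG) 46 to 41 bases before the start site. It is shown, with that match in capitals, because Rab20 is the changed member of largest size in this group and the E-box overlaps the core of the hypoxia response element (ACGTG):
Rab20 upstream window: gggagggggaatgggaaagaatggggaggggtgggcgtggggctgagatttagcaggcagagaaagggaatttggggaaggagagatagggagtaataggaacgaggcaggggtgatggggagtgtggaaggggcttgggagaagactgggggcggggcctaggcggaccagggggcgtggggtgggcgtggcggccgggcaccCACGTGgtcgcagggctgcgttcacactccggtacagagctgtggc

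All 3 RAB5 genes fell. Rab5c stood at 219, 214 and 205 TPM in M0 and at 194, 188 and 174 TPM in M2 (log2 fold change -0.20, SE 0.059, adjusted p = 0.0240 by limma). For Rab5a the values were 47.0, 52.1 and 51.7 TPM in M0 and 41.5, 45.8 and 39.2 TPM in M2 (-0.25, adjusted p = 0.0229 by limma). Each Rab5b library of M2, at 14, 13.8 and 10.8 TPM, lay below the M0 values of 16.1, 16.4 and 15.5 TPM (-0.31, adjusted p = 0.0348 by limma). Groups did not overlap for any of the 3 genes, though their nearest libraries were close. Rab5c made up 76.2% ± 1.23 of the summed RAB5 level in M0 and 77.1% ± 1.08 in M2 (SD, n = 3 each), and these shares overlapped between groups.

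These calls were lost in several fits with fewer libraries, in which the fold changes remained negative. Leaving out M0 replicate 1 or 2 ended the call of Rab5c (adjusted p = 0.0830 and 0.0819 by limma), at log2 fold changes of -0.18 and -0.20. Rab5a did not pass without M0 replicate 2 (0.0884), M0 replicate 3 (0.0877) or M2 replicate 1 (0.0599), at -0.22, -0.23 and -0.24. Rab5b did not pass without M0 replicate 1, 2 or 3 (adjusted p = 0.0935, 0.104 and 0.0755, at -0.30, -0.29 and -0.33), and not without the filter on low values (0.0808). The count of early endosome members that fell was 3, 2 and 2 without M0 replicates 1, 2 and 3 in turn. That is 42.9%, 28.6% and 28.6% of the tested members, where 19.2%, 17% and 17.1% of all genes fell.

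Rab22a, which encodes a RAB5 relative that governs sorting and tubule formation on endosomes, fell from 43.6, 45.7 and 48.2 TPM in M0 to 33.5, 41.1 and 31.1 TPM in M2 (log2 fold change -0.38, adjusted p = 0.0131 by limma). M2 replicate 2 came closest to the M0 range. Its adjusted p was 0.0554 without M0 replicate 3. Rab31, the closest relative of Rab22a, which acts between the trans-Golgi network and endosomes, averaged 74.0 ± 1.55 TPM (M0) and 69.2 ± 5.30 TPM (M2) (SD, n = 3 each), short of the threshold. Rab21, whose product traffics integrins, was at 56.7 and 54.0 TPM and did not pass.

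Late endosome and lysosome members held the largest fall of the family, in the minor transcript Rab7b, beside a small difference that did not pass in the abundant Rab7. Of 6 tested members 0 rose, 2 fell (33.3%) and 4 did not pass, with a median log2 fold change of -0.13. The shares over all tested genes were 20.1% for rises and 23.7% for falls. Their summed level was 272, 270.1 and 269 TPM in the M0 libraries and 238, 244 and 236 TPM in the M2 libraries.

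Rab7b encodes a RAB7-like protein of late endosomes and the trans-Golgi network that is known in macrophages as a brake on Toll-like receptor signalling. Its level was 18.5, 18.2 and 16.9 TPM in M0 replicates 1, 2 and 3 and 4.55, 4.60 and 3.66 TPM in M2 replicates 1, 2 and 3. The lowest M0 library was above the highest M2 library by a wide margin. The log2 fold change was -1.84 (SE 0.096, 95% confidence interval -2.06 to -1.63, adjusted p = 3.39e-06 by limma), and the mean level in M0 was 4.18 times that in M2. Behind these values were 3547 reads in M0 and 914 in M2, summed over libraries. In the authors' deposited table the log2 fold change of Rab7b was -2.02. The model used for Rab7b is NM_145509, on mm10 chromosome 1, 131688695 to 131715439, plus strand.

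Rab7, whose product drives the fusion of late endosomes and phagosomes with lysosomes, was the most abundant member of this group and did not pass. It stood at 166, 165 and 163 TPM in M0 and at 157, 161 and 151 TPM in M2 (log2 fold change -0.07, 95% confidence interval -0.19 to 0.04, adjusted p = 0.261 by limma). Its libraries did not overlap between groups, but the difference did not pass. As a share of the summed Rab7 and Rab7b level, Rab7b made up 10.0, 9.90 and 9.38% in the M0 libraries and 2.81, 2.77 and 2.36% in the M2 libraries. With 3 libraries a group an exact two-sided permutation test of a share cannot go below a p of 0.1, so this difference is given without a call.

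Rab9, which encodes a RAB that returns mannose 6-phosphate receptors from endosomes to the Golgi, fell from 30.2, 28.6 and 28.5 TPM in M0 to 22.8, 23.6 and 24.8 TPM in M2 (log2 fold change -0.28, SE 0.063, adjusted p = 0.00647 by limma). Rab29, a partner of the kinase LRRK2, averaged 32.5 ± 0.365 TPM (M0) and 29.4 ± 0.778 TPM (M2) (SD, n = 3 each), with no overlap, at an adjusted p of 0.0718 (limma), short of the threshold. Leaving out M2 replicate 3 brought it past the threshold (0.0246). Rab32, which serves lysosome-related organelles, was at 16.7, 15.9 and 18.7 TPM in M0 and at 16.4, 17.6 and 17.2 TPM in M2, and the groups overlapped (95% confidence interval of the log2 fold change -0.18 to 0.17). Its close relative Rab38 had 1 read in each group. Rab34, which positions lysosomes, averaged 9.02 TPM (M0) and 8.26 TPM (M2) and did not pass.

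**Figure D3:**
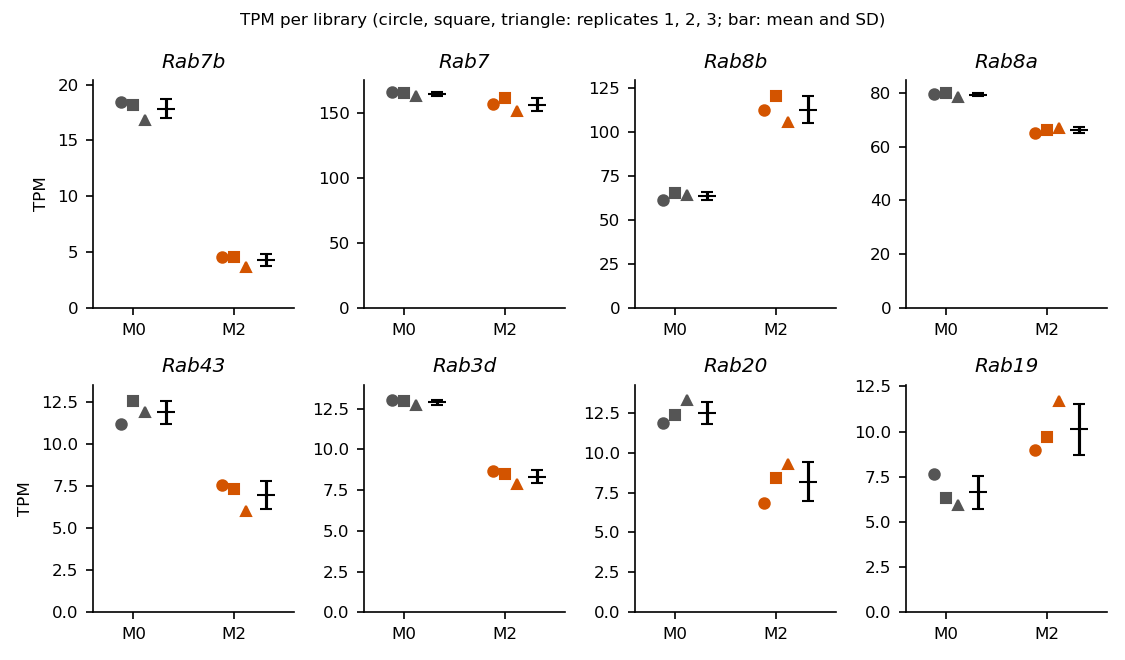
TPM per library of Rab7b and its relative Rab7, Rab8b and its relative Rab8a, and the other 4 genes that changed by at least 0.5 on the log2 scale. Circles, squares and triangles are replicates 1, 2 and 3, and the bar beside them is the mean and SD over 3 libraries. All panels start at 0, and the groups do not overlap in any of them.

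Exocytic and secretory vesicle members moved in opposite directions. Of 7 tested members 1 rose (14.3%) and 3 fell (42.9%), and 3 did not pass, with a median log2 fold change of -0.18. Among all tested genes 20.1% rose and 23.7% fell. The summed level of the group was higher in M2, at 296, 313 and 287 TPM against 267, 277 and 273 TPM in M0. Rab8b alone went from a mean of 63.5 TPM to 113 TPM.

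Rab8b and Rab8a encode close relatives that carry cargo from the trans-Golgi network and recycling endosomes to the plasma membrane. Their coding sequences are 77.5% identical over 623 aligned positions in the GENCODE M21 transcripts. The first 75 coding bases are shown because the RAB8 genes moved apart and their reads must be told apart to see it. They lie on GRCm38 at chr8:72161359-72161433, plus strand, for Rab8a and chr9:66919559-66919633, minus strand, for Rab8b, each within a single exon. Capitals mark the 10 bases at which Rab8b differs from Rab8a:
Rab8a coding start: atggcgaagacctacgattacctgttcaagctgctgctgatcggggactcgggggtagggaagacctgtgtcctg
Rab8b coding start: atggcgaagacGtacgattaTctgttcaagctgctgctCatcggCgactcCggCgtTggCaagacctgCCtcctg
The longest run of identical bases in the aligned coding sequences was 17, and no window of 50 bases is shared between the Rab8a and Rab8b transcripts. Of all 50-base windows of the Rab8b transcript 5.57% also occur in another gene's transcript, and of those of Rab8a 1.07%.

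Rab8b rose from 61.1, 65.4 and 64.0 TPM in M0 replicates 1, 2 and 3 to 112, 120.2 and 105 TPM in M2 replicates 1, 2 and 3. The M2 libraries were all far above the M0 libraries. The log2 fold change was 0.82 (SE 0.063, 95% confidence interval 0.67 to 0.96, adjusted p = 2.67e-05 by limma), the ratio of the means was 1.77, and 13276 and 25522 reads lay behind the M0 and M2 values. Rab8a went the other way, from 79.5, 79.9 and 78.6 TPM in M0 to 65.1, 66.3 and 67.0 TPM in M2 (-0.26, SE 0.049, adjusted p = 0.00303 by limma). Its groups were tight and separate.

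The order of the RAB8 genes was therefore reversed between the groups. Rab8b made up 43.5, 45.0 and 44.9% of the summed RAB8 level in the M0 libraries and 63.3, 64.4 and 61.1% in the M2 libraries. The mean share was 18.5 percentage points higher in M2, and between 17.8 and 19.4 points with each library left out in turn. Rab8a was the higher of the pair in all M0 libraries and the lower in all M2 libraries.

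The RefSeq window of 250 bases before the Rab8b start site, at chr9:66919706-66919955 on the minus strand of GRCm38.p6, is shown because Rab8b had the largest rise of the family. None of the motifs searched was found in it, so it carries no capitals:
Rab8b upstream window: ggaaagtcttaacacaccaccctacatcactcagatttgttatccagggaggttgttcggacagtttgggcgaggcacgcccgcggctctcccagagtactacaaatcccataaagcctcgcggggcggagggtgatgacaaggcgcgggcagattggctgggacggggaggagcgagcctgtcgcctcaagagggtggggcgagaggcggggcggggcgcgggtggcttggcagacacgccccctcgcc

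Rab3d, which encodes a RAB of secretory granules, fell from 13.0, 12.9 and 12.7 TPM in M0 to 8.65, 8.49 and 7.86 TPM in M2 (log2 fold change -0.57, SE 0.074, adjusted p = 3.90e-04 by limma). The libraries within each group were close and the groups lay well apart. Rab13, known for traffic to cell junctions, fell from 8.92 ± 0.625 TPM to 6.37 ± 0.557 TPM (SD, n = 3 each; -0.43, adjusted p = 0.00543 by limma). Rab3a, the RAB of synaptic vesicles, averaged 4.93 TPM (M0) and 4.25 TPM (M2) and did not pass.

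Rab10 had the highest mean of the exocytic group over 6 libraries, though Rab8b was higher in M2, and its product carries receptors such as TLR4 to the macrophage surface. It stood at 88.1, 94.0 and 94.1 TPM in M0 and at 88.0, 94.3 and 87.6 TPM in M2, with overlapping groups (log2 fold change -0.03, 95% confidence interval -0.16 to 0.10, adjusted p = 0.662 by limma). Rab27a, which docks secretory lysosomes and exosome-bearing compartments at the membrane, was at 10.8, 11.5 and 10.3 TPM in M0 and at 11.0, 12.7 and 8.96 TPM in M2, with overlapping groups. Its relative Rab27b had 1 read in M0 and 0 in M2, where a count of 0 allows up to 3.

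Among recycling endosome members the abundant ones did not pass. Of 7 tested members 0 rose, 3 fell (42.9%) and 4 did not pass, with a median log2 fold change of -0.04. Among all tested genes 20.1% rose and 23.7% fell. The summed level was 294 to 310.4 TPM in M0 and 291 to 307 TPM in M2, and the groups overlapped.

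Rab14, which acts between Golgi and endosomes, was the most abundant of the recycling group, at 94.0, 99.9 and 97.6 TPM in M0 and at 97.4, 107 and 98.3 TPM in M2 (log2 fold change 0.05, 95% confidence interval -0.08 to 0.19, adjusted p = 0.479 by limma). Rab11a, the RAB of slow recycling, stood at 65.3, 68.8 and 69.0 TPM in M0 and at 62.4, 65.2 and 70.6 TPM in M2. For Rab11b the values were 7.34, 7.53 and 7.97 TPM in M0 and 7.61, 7.64 and 7.82 TPM in M2. Neither RAB11 gene passed, their groups overlapped, and Rab11b held 10.1% of the summed RAB11 level in M0 and 10.4% in M2. Some reads of Rab11b may be shared with pseudogenes, since 9.75% of its 50-base windows occur in another gene's transcript, with the pseudogene Rab11b-ps2 sharing most. The same limit applies to Rab7 (14.45% of windows, most with Rab7-ps1), Rab5b (13%, most with Gm13991) and Rab9 (7.87%, most with Rab9b-ps1).

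RAB4 proteins serve rapid recycling, and their transcripts were lower in M2. Rab4b fell from 33.7, 33.5 and 33.9 TPM in M0 to 28.9, 28.6 and 31.5 TPM in M2 (log2 fold change -0.18, adjusted p = 0.0399 by limma), and Rab4a from 7.11, 8.38 and 7.21 TPM to 5.01, 5.64 and 6.81 TPM (-0.33, adjusted p = 0.0420). Groups did not overlap for either gene. Rab12, which sends recycling cargo to lysosomes, fell from 41.5 ± 1.33 TPM to 36.2 ± 1.41 TPM (SD, n = 3 each; -0.19, adjusted p = 0.0279 by limma). Each of these falls was lost with median-ratio scaling, where 0 recycling members fell (adjusted p = 0.118 for Rab4b, 0.0693 for Rab4a and 0.0664 for Rab12). Without M0 replicate 1, only Rab12 passed among them, and 0 of them passed without M0 replicate 2, M0 replicate 3, M2 replicate 1 or M2 replicate 2. A GENCODE model, Gm21983, covers 85.2% of the exonic bases of Rab4b, so its reads could not be assigned with certainty. Rab35, which also serves rapid recycling and shapes actin at the membrane, leaned upward, at 46.1, 50.3 and 47.5 TPM in M0 and 54.2, 50.8 and 53.9 TPM in M2, short of the threshold (0.14, adjusted p = 0.0845 by limma). In a limma fit on the authors' log2-scale values it passed (adjusted p = 0.0446). In the authors' deposited table its adjusted p was 0.0607, short of the threshold.

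ER and Golgi members kept their summed level, at 429 to 431 TPM in M0 and 412 to 443 TPM in M2, while single members moved. Of 10 tested members 2 rose (20%), 2 fell (20%) and 6 did not pass, and the median log2 fold change was -0.05. The shares over all tested genes were 20.1% and 23.7%, so these counts were near the background. Rab1a and Rab1b, which carry vesicles from the ER to the Golgi, did not pass. Rab1a was the most abundant of the group, at 132, 131 and 133 TPM in M0 and at 125, 129 and 121 TPM in M2 (log2 fold change -0.08, 95% confidence interval -0.19 to 0.03, adjusted p = 0.224 by limma). Rab1b averaged 114 TPM (M0) and 116 TPM (M2). Rab6a, the RAB of retrograde Golgi traffic, was at 57.9 and 54.7 TPM and also did not pass.

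Rab43, a Golgi RAB, had the second largest fall of the family. It stood at 11.2, 12.5 and 11.9 TPM in M0 and at 7.56, 7.29 and 6.0 TPM in M2 (log2 fold change -0.70, SE 0.098, adjusted p = 6.12e-04 by limma). All M2 libraries were below all M0 libraries. A GENCODE model, Gm45140, covers 90.4% of its exonic bases, so the fall may belong to either model. Rab33b, a Golgi RAB that also takes part in autophagy, fell from 7.92 to 6.45 TPM at an adjusted p of 0.0492 (limma). That call was lost without M0 replicates 1, 2 and 3 and M2 replicates 1 and 2 (adjusted p = 0.0521, 0.122, 0.191, 0.146 and 0.0563), under the replicate block (0.0577) and with median-ratio scaling (0.0527).

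Rab2a and Rab19 rose. Rab2a, which acts in Golgi traffic and in the late endocytic pathway, stood at 56.4, 60.2 and 61.6 TPM in M0 and at 68.7, 72.0 and 70.5 TPM in M2 (log2 fold change 0.24, SE 0.056, adjusted p = 0.00821 by limma). Its relative Rab2b averaged 3.55 TPM (M0) and 3.32 TPM (M2) and did not pass, and 77.6% of its exonic bases are overlapped by other gene models. Rab19, a less studied Golgi RAB, stood at 7.68, 6.31 and 5.92 TPM in M0 and at 8.95, 9.70 and 11.7 TPM in M2 (0.54, SE 0.12, adjusted p = 0.00660 by limma). Of the 3 rising genes Rab19 had the largest standard error, and M0 replicate 1 came closest to the M2 range. It rested on 410 reads in M0 and 679 in M2.

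The window before the Rab19 start site, at chr6:39381103-39381352 on the plus strand of GRCm38.p6 in RefSeq, is shown because Rab19 was the rising member with a STAT-type match, the other rising member with a window, Rab8b, having none. The match to TTCNNNGAA, 209 to 201 bases before the start site, is in capitals:
Rab19 upstream window: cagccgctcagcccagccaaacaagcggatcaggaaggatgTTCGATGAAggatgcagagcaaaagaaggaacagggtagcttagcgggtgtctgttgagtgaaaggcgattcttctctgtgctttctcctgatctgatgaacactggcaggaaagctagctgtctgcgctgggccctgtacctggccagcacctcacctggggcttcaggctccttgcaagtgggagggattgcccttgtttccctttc

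Windows of 250 bases before the start site were found for 37 of the 41 tested members in the RefSeq table (GRCm38.p6). Entries for Rab7b, Rab2a, Rab4a and Rab18 were missing. On both strands 8 motifs were searched. The STAT motif TTCNNNGAA was found in 3 of 37 windows (Rab19, Rab34 and Rab11a) and in 7.02% of all 32851 RefSeq windows of that length. The STAT6-type variant with a 4-base spacer was found in Rab5b and Rab11b, and in 5.85% of all windows. The D-box that E4BP4 binds (TTATGTAA or TTACGTAA) occurred in Rab29 alone among members, and in 0.932% of all windows. The E-box was found in 4 member windows (Rab20, Rab5a, Rab21 and Rab23) and 6.02% of all, and the overlapping hypoxia core ACGTG in 8 member windows and 16.6% of all. A cyclic AMP response element (TGACGTCA) was found in Rab5a and 1.55% of all windows, an AP-1 site (TGANTCA) in Rab34 and 6.75%, and the PU.1-type core GAGGAA in 7 member windows and 23.3%. Member windows were rich in CpG, with a median of 18 CpG pairs against 6 over all windows, and Rab19, at 6, was among the poorest. A match is a description of letters and says nothing of binding.

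Of the members at other or unassigned sites, Rab24, linked to autophagy, fell to 29.6 ± 3.09 TPM in M2 from 35.7 ± 1.65 TPM in M0 (SD, n = 3 each; log2 fold change -0.27, adjusted p = 0.0251 by limma). Most of its exonic bases (66.4%) are overlapped by Prelid1. Rab40c, whose product is the substrate receptor of a ubiquitin ligase, fell from 21.3 to 18.5 TPM (adjusted p = 0.0424 by limma). Each call was lost without M0 replicate 1, 2 or 3 or M2 replicate 1 or 2, with adjusted p from 0.0542 to 0.102 for Rab24 and from 0.0551 to 0.131 for Rab40c. Rab28 and Rab23, both known from cilia, did not pass, and Rab23 averaged 5.52 TPM (M0) and 5.51 TPM (M2).

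**Figure D4:**
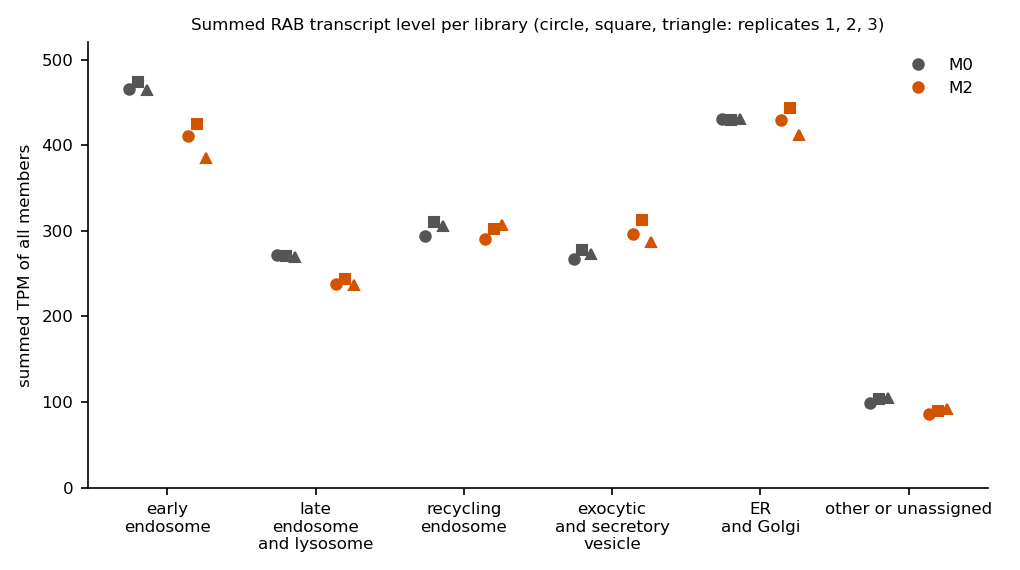
Summed TPM of all members at each main site in every library, M0 in grey and M2 in orange, with circles, squares and triangles for replicates 1, 2 and 3. Early endosome, late endosome and other or unassigned sums are lower in every M2 library, and recycling and ER and Golgi sums overlap. Exocytic sums are higher, though 6 of 7 tested exocytic members have a negative log2 fold change and only Rab8b a positive value.

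The 18 other members lay below the filter of 1 TPM in at least 3 libraries and were left out of the fit. All 41 tested members were above 1 TPM in all 6 libraries, so none passed the filter through a single group. The 18 together held 46 to 64 reads per library, and 3 of them (Rab17, Rab37 and Rab6b) had 0 reads in all libraries, where a count of 0 allows up to 3 reads. Rab30 came closest to the filter, at 1.16, 1.31 and 0.944 TPM in M0 and 0.705, 0.588 and 0.659 TPM in M2, on 97 and 60 reads. Its groups did not overlap, and it was lower in every M2 library. Fitted without the filter it fell (log2 fold change -0.37, adjusted p = 0.0222 by limma). Rab15, a RAB of recycling endosomes, had 26 reads in M0 and 51 in M2. Rab25, the epithelial RAB11 relative, had 3 and 7 reads and passed in that fit (adjusted p = 0.0382 by limma). The neuronal and secretory members Rab3b, Rab3c and Rab26 had between 0 and 5 reads in each group.

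The genes that switch RAB proteins were examined as lists of regulators and effectors. Gdi2, a dissociation inhibitor that extracts GDP-bound RAB proteins from membranes, averaged 218 TPM (M0) and 248 TPM (M2) and did not pass (adjusted p = 0.0604, and 0.0205 to 0.187 over 13 alternatives). Rabggtb, the catalytic subunit that attaches geranylgeranyl lipids to RAB proteins, rose 1.22-fold, and Rabggta, the other subunit, fell from 8.93 to 6.97 TPM (adjusted p = 0.0243 by limma, and 0.0196 to 0.110 over 13 alternatives).

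Among 30 tested exchange factor genes 2 rose and 10 fell, with a median of -0.14. Rab3il1, which encodes the exchange factor GRAB, rose from 38.2 ± 1.56 to 69.5 ± 5.43 TPM (SD, n = 3 each). Its log2 fold change was 0.84 (adjusted p = 3.66e-05 by limma), and the ratio of the means was 1.82. Rab3ip, another exchange factor gene of the list, moved the other way, from 4.09 to 2.88 TPM (log2 fold change -0.39, adjusted p = 0.00719 by limma). It is named here after its values were seen. Dennd3, an exchange factor for RAB12, fell from 3.08 to 1.28 TPM, Dennd1c, for RAB35, from 13.6 to 7.99 TPM, and Dennd5a from 45.7 to 31.3 TPM. Among 34 tested GTPase-activating protein genes 2 rose and 12 fell, with a median of -0.14. Tbc1d16, which acts on RAB4, rose 2.03-fold to 23.8 TPM, and Tbc1d14, a RAB11-binding regulator of autophagy, rose 1.80-fold to 23.0 TPM. Tbc1d2, which acts on RAB7, fell from 3.92 to 1.64 TPM, and Tbc1d10b, which acts on RAB35 and RAB27, from 46.3 to 26.2 TPM.

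Of 31 tested effector genes 3 rose and 10 fell, with a median of -0.15. Appl2, a RAB5 effector on early signalling endosomes, fell from 47.2 ± 0.375 to 23.3 ± 2.22 TPM (SD, n = 3 each; log2 fold change -0.99, adjusted p = 2.34e-05 by limma). Its relative Appl1, named beside it after its values were seen, rose (0.35, adjusted p = 0.0114 by limma). Unc13d, the RAB27 effector Munc13-4 that primes secretory lysosomes, fell from 5.46 to 2.02 TPM, while Rab27a itself did not pass. Rilpl2 and Rab11fip5, effectors of RAB8 and RAB10 and of RAB11, dropped to 24.5 TPM (from 35.8) and 10.1 TPM (from 14.9). Among exchange factors, GTPase-activating proteins and effectors 40%, 41.2% and 41.9% of tested genes were called in either direction, against 43.7% of all tested genes. By direction, 33.3%, 35.3% and 32.3% fell, against 23.7% of all tested genes. Rises made up 6.67%, 5.88% and 9.68%, against 20.1% of all tested genes. The counts in these lists moved with the libraries, the values tested and the filter, which also changes how many genes are tested. Over all fits falls ranged from 5 to 14 among exchange factors, from 6 to 13 among GTPase-activating proteins and from 6 to 11 among effectors. The 6 falls among GTPase-activating proteins came with the filter of 5 TPM. There 22 of these genes were tested, so 27.3% fell, against 24.6% of all genes. Rises ranged from 1 to 6, from 2 to 5 and from 2 to 6 in the same lists. Without M2 replicate 3 there were 6 rises among exchange factors (20%), 4 among GTPase-activating proteins (11.8%) and 6 among effectors (19.4%). In that fit 25.6% of all genes rose. Without M0 replicate 2 there were 5 falls among exchange factors (16.7%) and 6 among effectors (19.4%), where 17% of all genes fell. Without M0 replicate 3 there were 5 (16.7%) and 8 (25.8%), where 17.1% of all genes fell. Without M0 replicate 1 or 3 there was 1 rise among exchange factors (3.33%), where 15.3% and 14.7% of all genes rose.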

How the data were processed

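The 6 libraries were made from poly(A) RNA (input 200 ng total RNA), and sample titles gave group and replicate. Tools listed in the submitters' processing notes, without roles, are STAR 2.7.5a, HOMER 4.11.1, bcl2fastq and DESeq2, with build mm10. Annotation and strand setting: not given in the sources used here. The authors deposited TPM values per library, per the file headers, and a table of log2-scale normalized values, whose transform the header does not name, with log2 fold changes, p-values and adjusted p-values by the authors. Its sign was checked against the library columns, and positive values mean more in M2.

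Genes at 1 TPM or more in at least 3 libraries (11202) were fitted by group with limma 3.58.1 in R 4.3.3 on log2(TPM + 1), with a variance trend and Benjamini-Hochberg adjustment over all of them. The code was tested on simulated data. Reads were recovered from TPM and model length, and 100% of checked values lay within 0.1 of a whole read. The library totals in the headers are 1.18 to 1.20 times as high. Floors from reads cover counting error only, and the confidence intervals are those of the limma fit. Python 3.11.15 with scipy 1.17.1 and matplotlib 3.10.9 prepared tables, permutation tests and plots. Sequences are from RefSeq (GRCm38.p6) and GENCODE M21.

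Named members were those called with a log2 fold change of 0.5 or more in size, the most abundant of each site and 7 paralog sets. Members and lists were chosen with earlier results of these data known. Of the regulators, up to 4 per list with the lowest adjusted p were named, and 1 of them is not reported here. Alternatives were no filter, a filter of 5 TPM, a pseudocount of 0.1, median-ratio scaling, limma-voom on recovered reads, the authors' values, a replicate block and each library left out.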

Additional observations from a re-analysis of the deposited data

How the results depend on the processing

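No called result changed direction in any of the 13 alternatives. Of 20 RAB calls 10 held in all of them. With each library left out in turn, RAB genes that fell numbered 8 to 18, those that rose 3 each time, and falls were 2 to 5 at early endosomes, 0 to 3 at recycling endosomes, 2 to 3 at late endosomes and 1 to 2 at ER and Golgi. With median-ratio scaling 0 recycling members and 1 ER and Golgi member fell. With limma on the authors' values 0 recycling members fell and 1 (Rab35) rose, where 23.5% of all genes fell and 24.7% rose. Without a filter 56 RAB genes were tested and 13 of them fell (23.2%), where 11.8% of all genes fell. In that fit 1 recycling member (Rab25, on 3 and 7 reads) rose. Over all tested genes, with each library left out in turn, 1646 to 2869 rose and 1902 to 2825 fell. Deviations of same-numbered libraries had correlations of -0.033, 0.21 and 0.029, and those of differently numbered libraries ranged from -0.20 to 0.17. With 3 libraries a group, and deviations that also trend with gene model length, these values cannot settle whether the numbers pair the samples. With the replicate block 14 RAB genes fell (34.1%) and 3 rose (7.32%), where 23.5% of all genes fell and 20% rose. In that fit 1 ER and Golgi member fell (10%). Depth limits most the 18 members below the filter. The fewest reads of a tested member in a library were 85 (Rab3a), and the effect of depth on tested members was not tested.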
